A study of Mus musculus with 8 samples.

Results

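The genes that neighbour Cd36 on mouse chromosome 5 were described in brown adipose tissue (BAT), the fat depot that burns lipid to make heat, with bulk RNA-seq. A list of 58 protein-coding genes lying within about 10 Mb of Cd36 was used, out of 31053 gene identifiers in the count table. On build GRCm38 these members span chromosome 5 from 7960457 to 27727505, with 18 before Cd36 in chromosomal coordinates and 40 after it. The interval holds 183 annotated genes of the table, so the list is a part of the neighbourhood. Cd36 itself and Slc25a40 were left out of the list and serve as reference points.

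The series holds 4 WT and 4 Cd36KO libraries, and the labels give neither group a treatment or diet. The study's methods put all mice on a normal diet, with a high-fat diet named only for some. All 8 are labelled as strain C57BL6/J, 8 weeks of age, Brown Adipose Tissue and, as cell type, Stromal Vascular Fraction. The labels give the genotype as Cd36KO without the allele. The study's methods describe a myeloid-specific line, CD36 flox/flox crossed to Csf1r Cre, in which the Cre is driven by a gene of the monocyte and macrophage lineage, and the study attributes its BAT transcriptome to that line. A germline CD36 -/- line was also made, and for the myeloid-specific line the methods give an older age at sacrifice than the label, while the figure legend for this comparison gives the age on the label. Per the methods, wild-type C57BL6/J mice came from a commercial breeder and the myeloid-specific line from another laboratory. Whether these purchased mice are the WT group here is not spelled out, and neither is the strain from which the DNA around the Cd36 allele came.

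Genes that lie close together on a chromosome are inherited together, because crossing over between near positions is rare. Bred to another strain, an engineered allele therefore keeps flanking DNA of the strain in which it was made. Neighbouring genes can also share enhancers and domains of chromatin. Counts per gene, which are all that was measured here, carry no allele and no contact between regions.

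Total counts per library ranged from 2679785 to 4097953. Cd36 encodes a receptor that takes up fatty acids and oxidized lipids. Its 4 WT libraries had 2796, 2958, 3505 and 2412 normalized counts, that is, counts divided by the size factor of the library. The Cd36KO library whose column carries no replicate number, called the unnumbered library below, had 1926, and Cd36KO replicates 2, 3 and 4 had 2109, 2384 and 1930. The groups did not overlap, and the fitted level in Cd36KO was 0.715 of that in WT. The log2 fold change, Cd36KO against WT throughout, was -0.48 and did not pass (adjusted p = 0.0602 in DESeq2, 0.191 in edgeR and 0.344 in limma). In bulk tissue, fewer cells that express a gene and less RNA per cell cannot be told apart.

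Other tissue components moved with the groups or with single libraries. Brown adipocyte markers, Ucp1 among them, were abundant in all 8 libraries, at 18441 to 23785 summed normalized counts in WT and 32437 to 40852 in Cd36KO for 10 genes, of which 4 were called higher, although the labelled cell type is the stromal vascular fraction, which is prepared by removing adipocytes. A score of 5 white fat genes that passed a filter on low counts, of 10 listed, is the mean of their library-scaled log2 counts (log2 CPM). It was 4.68 in WT replicate 1, 6.14 to 6.25 in the other WT libraries and 3.446 to 4.104 in Cd36KO. Of the 6 white fat genes with an adjusted p, 5 were called lower. Summed over the 10 listed, normalized counts ranged from 607 to 3759 (WT) and from 348 to 513 (Cd36KO), and Hoxc10, Wt1 and Tcf21 had no count. The 12 skeletal muscle markers summed to 669 to 55305 normalized counts in WT, the highest in WT replicate 1, and to 49.1 to 7810 in Cd36KO, with 0 of 12 called. Stromal markers summed to 1877 to 2401 in WT and 1409 to 1619 in Cd36KO, with 2 of 7 called lower. Macrophage (0 of 7), endothelial (0 of 8), pericyte (0 of 6) and Schwann cell (0 of 5) markers gave no call. Xist had 772 to 1588 counts in every library and the Y-linked Uty, Kdm5d and Eif2s3y had 0 in all, with 3 counts of Ddx3y in WT replicate 1, although the methods state that the mice were male.

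Of the 58 members, 57 had a count and 42 had enough counts for an adjusted p. The listed members that passed the test were all lower. In Cd36KO, 4 members were lower and 0 were higher at a DESeq2 adjusted p under 0.05. These were Sema3c, Gnai1, Lrrc17 and Steap4, with log2 fold changes from -2.15 to -1.02. The share called was 9.52% of 42 members, against 2.95% of the 9619 genes tested and 1.53% for lower calls. On the rest of chromosome 5, 12 of 580 tested genes were called, or 2.07%, with 7 higher and 5 lower. The list was chosen with earlier results of these data known and leaves out Slc25a40, which was called higher (DESeq2 adjusted p = 0.00592). Over all 52 tested genes of the interval, 4 were called lower and 1 higher.

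The unadjusted p-values come from the same fit and include the 4 calls, so they are not separate support. At an unadjusted DESeq2 p under 0.05 there were 7 members lower and 0 higher, or 16.7% lower, where 7.88% of all genes were lower and 7.69% higher. Over all 52 tested genes of the interval, Cd36 and Slc25a40 included, 9 were lower and 1 was higher. The sign of the fitted difference was negative in 31 of the 42 members and in 4890 of the 9619 genes. The median log2 fold change was -0.071 over the members, -0.0088 over all genes and 0.016 over the rest of chromosome 5. Medians of whole autosomes ran from -0.060 (chromosome 1) to 0.068 (chromosome 17). The edgeR quasi-likelihood test called 0 of 42 members, with 7 lower and 0 higher at an unadjusted p under 0.05, and 0.143% of all genes. The 4 calls therefore depend on the test, and none of them holds in edgeR or in limma on the authors' log2 values, which also called 0.

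**Figure D1:**
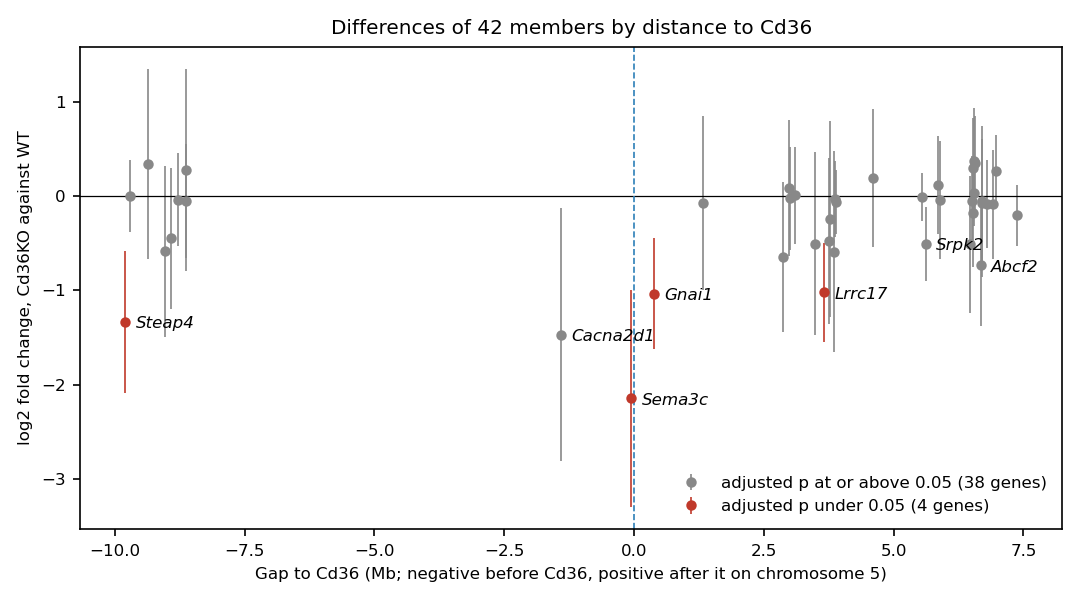
Log2 fold change, Cd36KO against WT, of the 42 members with an adjusted p against the gap in Mb between the edges of the member and of Cd36 on chromosome 5, negative before Cd36. Points are DESeq2 estimates from 4 WT and 4 Cd36KO libraries with 95% intervals, red where the adjusted p is under 0.05. The nearest members, Sema3c and Gnai1, lie at -2.15 and -1.04, while most members beyond 2.5 Mb lie near 0.

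Sema3c was the member nearest to Cd36. It encodes a secreted class 3 semaphorin, a guidance cue for axons, vessels and migrating cells, and lies 51.4 kb before Cd36, from 17574281 to 17730268 on the plus strand (ENSMUSG00000028780). Its normalized counts were 28.0, 31.4, 16.5 and 12.9 in WT replicates 1 to 4. They were 3.34 in the unnumbered Cd36KO library and 4.60, 10.2 and 2.29 in Cd36KO replicates 2, 3 and 4. All Cd36KO values lay below all WT values, but few reads stood behind them, 13 to 37 raw counts in WT and 3 to 10 in Cd36KO. Sema3c fell by 2.15 on the log2 scale (standard error 0.59), with a 95% interval from -3.30 to -0.99 (DESeq2 adjusted p = 0.0196). The exact two-sided permutation p over the 70 arrangements of the 8 libraries was 0.0286, the smallest this design can give, and the edgeR adjusted p was 0.104. Only 3 of the 8 leave-one-out fits gave an adjusted p for Sema3c, from 0.0484 (DESeq2, without WT replicate 3) to 0.0982. The white fat scores were 4.68, 6.14, 6.23 and 6.25 in WT replicates 1 to 4 and 3.446 to 4.104 in the Cd36KO libraries.

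Gnai1 was the nearest tested gene on the other side. It encodes an inhibitory G protein alpha subunit, which lowers adenylyl cyclase activity and so opposes the cyclic AMP signal that drives thermogenesis. It lies 376 kb after Cd36, from 18265135 to 18360355 on the minus strand (ENSMUSG00000057614). WT replicate 1 had 67.7 normalized counts and WT replicates 2, 3 and 4 had 177, 167 and 193. The unnumbered Cd36KO library had 76.9, and Cd36KO replicates 2, 3 and 4 had 70.2, 76.7 and 70.9. The 4 Cd36KO libraries agreed closely, and WT replicate 1 lay below all of them, so the groups overlapped. Gnai1 fell by 1.04 on the log2 scale (standard error 0.30; DESeq2 adjusted p = 0.0289, edgeR adjusted p = 0.119, exact two-sided permutation p = 0.143). It passed in 2 of 8 leave-one-out fits, without WT replicate 1 (-1.28, DESeq2 adjusted p = 1.09e-06) and without Cd36KO replicate 2 (DESeq2 adjusted p = 0.0429), and the other 6 gave DESeq2 adjusted p-values of 0.0545 to 0.127. WT replicate 1 is also the WT library with the lowest white fat score, and with that score as a covariate the Gnai1 estimate turned to 0.74 (DESeq2 adjusted p = 0.389).

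**Figure D2:**
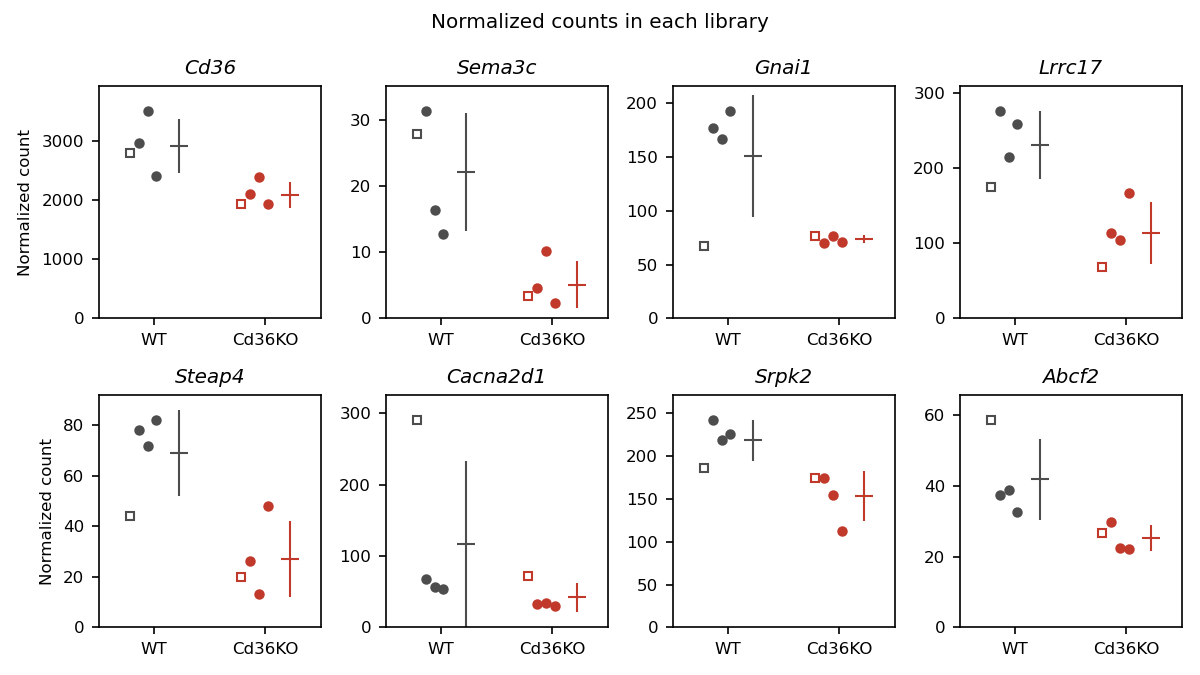
Normalized counts of Cd36 and 7 members in each of the 4 WT (grey) and 4 Cd36KO (red) libraries, on linear axes from 0. Open squares are WT replicate 1 and the unnumbered Cd36KO library, and bars give the mean ± SD. Sema3c, Lrrc17, Srpk2 and Abcf2 show no overlap between groups, whereas WT replicate 1 is the lowest library for Gnai1 at 67.7 and the highest for Cacna2d1 at 291.

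Lrrc17 encodes a secreted leucine-rich repeat protein and lies 3.65 Mb after Cd36, from 21543559 to 21575904 on the plus strand (ENSMUSG00000039883). Its normalized counts were 175, 276, 215 and 258 in WT replicates 1 to 4. They were 68.0 in the unnumbered Cd36KO library and 114, 104 and 167 in Cd36KO replicates 2, 3 and 4. The groups did not overlap, and the closest values were Cd36KO replicate 4 and WT replicate 1. Lrrc17 fell by 1.02 on the log2 scale (standard error 0.27), a 2.03-fold lower level (DESeq2 adjusted p = 0.0127, edgeR adjusted p = 0.110, exact two-sided permutation p = 0.0286). It passed in 6 of 8 leave-one-out fits, and not without WT replicate 2 (adjusted p = 0.0789) or without the unnumbered Cd36KO library (adjusted p = 0.0630). The white fat score as a covariate brought it to -0.49 (DESeq2 adjusted p = 0.648). An exon of Lrrc17 overlaps one of Fbxl13 on the opposite strand, and the strand setting of the counting is not given in the sources used here.

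Steap4 was the most distant member, 9.80 Mb before Cd36, from 7960457 to 7982213 on the plus strand (ENSMUSG00000012428). It encodes a metalloreductase that reduces iron and copper and is known from adipose tissue and its inflammation. WT replicates 1 to 4 had 44.2, 78.1, 71.7 and 82.1 normalized counts. The unnumbered Cd36KO library had 20.1, and Cd36KO replicates 2, 3 and 4 had 26.5, 13.3 and 48.0. Cd36KO replicate 4 exceeded WT replicate 1, and every other Cd36KO value lay below every WT value. Steap4 fell by 1.34 on the log2 scale (standard error 0.38; DESeq2 adjusted p = 0.0282, edgeR adjusted p = 0.121, exact two-sided permutation p = 0.0571). Among the 3 leave-one-out fits that gave an adjusted p it passed in 1, without WT replicate 1 (DESeq2 adjusted p = 0.00507), and the highest was 0.134. With the white fat score as a covariate it was -0.11 (DESeq2 adjusted p = 0.949).

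The promoters of these members differ in composition, and those of Gnai1 and Lrrc17 are shown because they stand at opposite ends. The sequences are the 250 bases before the RefSeq start site on GRCm38.p6, written 5′ to 3′ on the strand of the gene, at chr5:18360414-18360663 (minus strand) and chr5:21543277-21543526 (plus strand). Capitals mark GGGCGG, the GC box, in Gnai1, and TATAAA and CCAAT in Lrrc17, each searched on both strands.
Gnai1: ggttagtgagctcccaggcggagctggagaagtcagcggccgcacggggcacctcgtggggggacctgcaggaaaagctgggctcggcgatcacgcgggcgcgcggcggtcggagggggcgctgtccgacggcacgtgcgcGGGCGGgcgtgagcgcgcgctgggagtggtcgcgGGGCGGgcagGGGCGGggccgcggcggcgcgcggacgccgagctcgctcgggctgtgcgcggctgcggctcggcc
Lrrc17: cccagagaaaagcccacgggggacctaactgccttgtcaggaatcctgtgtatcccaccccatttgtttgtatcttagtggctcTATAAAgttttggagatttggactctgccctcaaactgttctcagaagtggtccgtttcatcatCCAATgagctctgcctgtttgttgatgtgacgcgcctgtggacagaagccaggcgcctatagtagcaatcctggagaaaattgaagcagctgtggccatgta
The Gnai1 window was 79.2% G or C and held 3 GC boxes, and the Lrrc17 window was 49.2% G or C and held none. The Sema3c window, which GENCODE annotates as exon and which is not printed, resembled that of Gnai1, at 78.4% G or C with 3 GC boxes. The Steap4 window, in part annotated as exon, was 58.4% G or C with 1 TATAAA and no GC box. Of 32817 RefSeq promoter windows of this length, 32.7% held GGGCGG, 12.4% TATAAA, 33.8% CCAAT and 14.0% AGGTCA, a hexamer that nuclear receptors bind. Of 63 windows of the listed members, 37 held GGGCGG, 3 TATAAA, 18 CCAAT and 7 AGGTCA. The median share of G or C was 61.2% in the members' windows and 52.4% over all. AGGTCA was in none of the windows of the 4 called members. The 4 called members thus share no motif among those searched, and a match or its absence is a description of these letters alone.

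**Figure D3:**
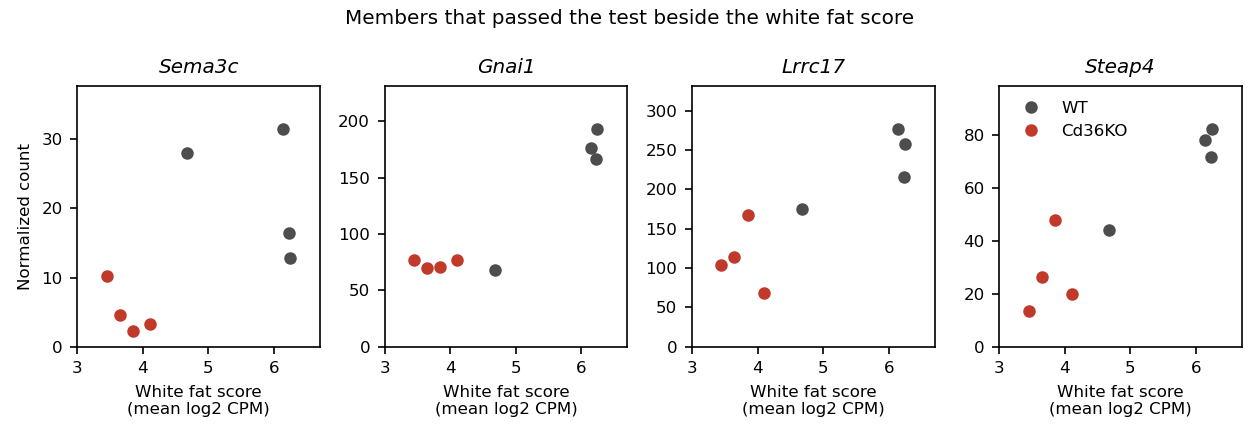
Normalized counts of the 4 called members in each library against the white fat score of the library, the mean log2 CPM of 5 genes, for 4 WT (grey) and 4 Cd36KO (red) libraries. For Gnai1, Lrrc17 and Steap4 the 3 WT libraries with scores of 6.14 to 6.25 are the highest, and WT replicate 1, at 4.68, lies nearer to the Cd36KO libraries. For Sema3c, WT replicate 1 is among the highest, at 28.0.

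Beside Sema3c, the next members before Cd36 were Hgf and Cacna2d1. Cacna2d1 encodes an auxiliary subunit of voltage-gated calcium channels that is abundant in skeletal muscle, and lies 1.41 Mb before Cd36. It had 291, 67.9, 56.5 and 53.4 normalized counts in WT replicates 1 to 4, 72.4 in the unnumbered Cd36KO library and 33.4, 33.8 and 29.7 in Cd36KO replicates 2 to 4. The highest library in each group, WT replicate 1 and the unnumbered Cd36KO library, is also the one with the highest muscle score in its group, at 10.2 and 7.25. Below these the order did not hold. Cd36KO replicate 4, with the lowest Cacna2d1, had a muscle score of 4.66, above 1.67 and 0.66 in replicates 2 and 3. The estimate of -1.47 (standard error 0.68) did not pass (DESeq2 adjusted p = 0.255, exact two-sided permutation p = 0.114). With the muscle score as a covariate it was -0.36 (DESeq2 adjusted p = 0.784), and with the white fat score it was -3.41 (DESeq2 adjusted p = 0.00084). Cacna2d1 passed in 2 of the 8 fits that left out a library, without WT replicate 4 and without the unnumbered Cd36KO library.

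After Gnai1 came Magi2, a scaffold protein of cell junctions and synapses, at 1.34 Mb. Its normalized counts were 9.93 to 17.6 in WT and 8.91 to 14.3 in Cd36KO, with a log2 fold change of -0.076 and a 95% interval from -1.001 to 0.848. Phtf2 at 2.87 Mb had 23.7 to 55.1 in WT and 13.4 to 27.6 in Cd36KO, with a log2 fold change of -0.65 (DESeq2 adjusted p = 0.461). Tmem60 at 2.99 Mb had 23.5 to 34.8 in WT and 16.7 to 45.8 in Cd36KO, with a log2 fold change of 0.084. The groups overlapped for all 3. Before Cd36, the next tested member beyond Cacna2d1 lay 8.62 Mb away. Dmtf1, a transcription factor that restrains the cell cycle, had a log2 fold change of -0.050, and Tmem243, which overlaps it on the opposite strand, 0.28, neither past the threshold (DESeq2 adjusted p = 0.966 and 0.875).

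By distance, the 2 tested members under 1 Mb from Cd36 were both called lower, with a median log2 fold change of -1.59. Between 1 and 2.5 Mb, 0 of 2 were called, with a median of -0.77. Between 2.5 and 5 Mb, 1 of 12 was called and the median was -0.15. Over 5 Mb, 1 of 26 was called and the median was -0.050. The medians thus came closer to 0 from bin to bin, but the first 2 bins hold 2 tested members each, and over all 42 members Spearman's rho with the gap was 0.27 for the signed and -0.15 for the absolute log2 fold change. The absolute log2 fold change had a rho of -0.29 with the mean count, and these values are descriptions over genes that share the same 8 libraries.

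**Figure D4:**
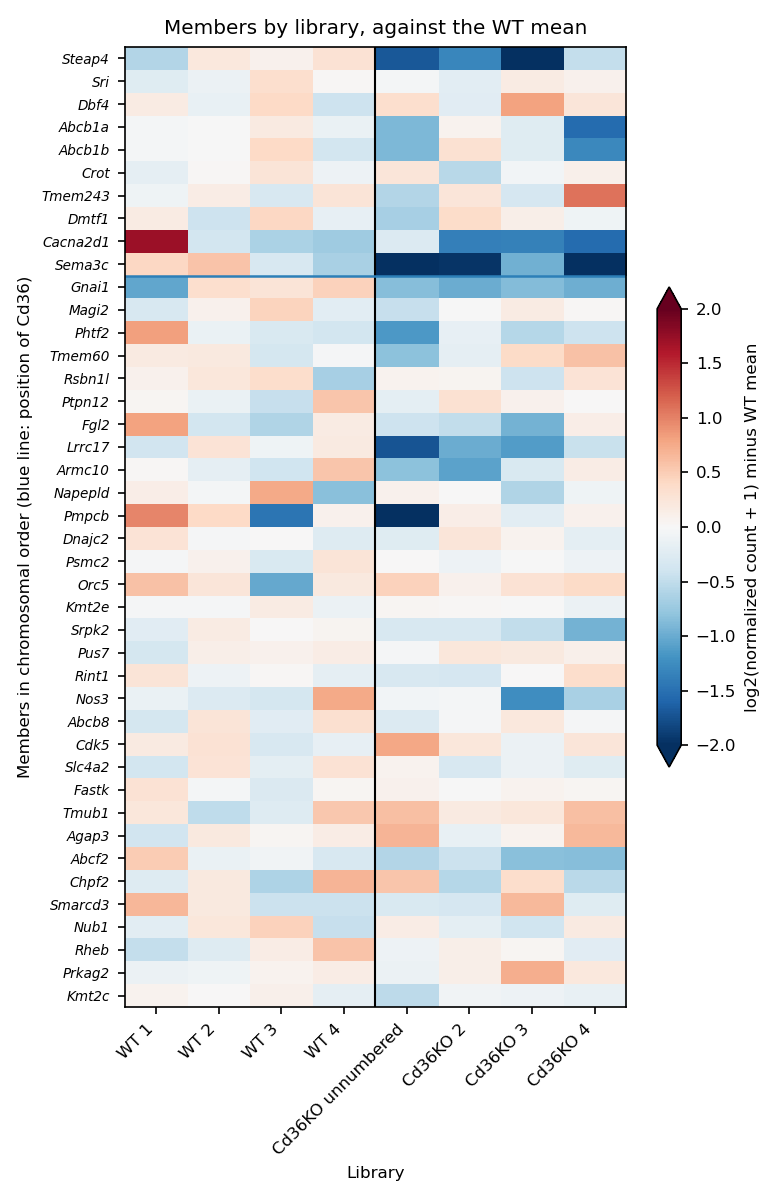
Log2(normalized count + 1) of the 42 members with an adjusted p, minus the WT mean of each gene, in the 8 libraries, with members in chromosomal order from top to bottom and the position of Cd36 as a blue line. Colours stop at 2 and -2, and arrows on the scale mark values beyond. Steap4, Sema3c, Gnai1 and Lrrc17 are blue in all 4 Cd36KO libraries, and Steap4, Gnai1 and Lrrc17 also in WT replicate 1. Taking away the WT mean makes every gene change sign among the WT libraries.

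A further 2 members had separate groups without an adjusted p under 0.05. Srpk2, a kinase of splicing factors at 5.61 Mb, had 186, 242, 219 and 226 normalized counts in WT replicates 1 to 4, 174 in the unnumbered Cd36KO library and 174, 154 and 112 in Cd36KO replicates 2 to 4. The estimate was -0.51 (standard error 0.20; DESeq2 adjusted p = 0.149, exact two-sided permutation p = 0.0286), and -0.16 with the white fat score as a covariate (DESeq2 adjusted p = 0.872). Abcf2, an ATP-binding cassette protein without a membrane domain at 6.68 Mb, had 58.7, 37.4, 38.8 and 32.6 in WT replicates 1 to 4, 26.7 in the unnumbered Cd36KO library and 29.9, 22.5 and 22.1 in Cd36KO replicates 2 to 4, with a log2 fold change of -0.74 (DESeq2 adjusted p = 0.230, exact two-sided permutation p = 0.0286). Together with Lrrc17 these were 3 of the 34 members averaging 20 or more normalized counts in which all Cd36KO values lay below all WT values, or 8.82%, against 4.03% of 8219 genes. In 0 of 34 did all Cd36KO values lie above, against 5.41% of those genes. The exact tests were run on 59 genes and their p-values are unadjusted.

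Of the 42 tested members, 38 did not pass in either direction. Of the 5 metabolic enzymes, Steap4 fell and 4 were not called. Prkag2, the gamma 2 subunit of the energy sensor AMPK, had 415 to 502 normalized counts in WT and 418 to 748 in Cd36KO, a log2 fold change of 0.27 (DESeq2 adjusted p = 0.553). Crot, which moves medium-chain acyl groups in peroxisomes, Napepld and Nos3 had log2 fold changes of -0.039, -0.24 and -0.51. All 5 ABC proteins and transporters had negative estimates, from -0.74 for Abcf2 to -0.050 for Abcb8, a transporter of mitochondria, and 0 were called. The drug efflux pumps Abcb1a and Abcb1b stood at -0.59 and -0.45. Of 5434 and 8058 stretches of 75 bases, the read length, in their transcripts, they share 644. How reads from shared stretches were counted is not given in the sources used here. All 6 chromatin and transcription genes also had negative estimates, from -0.65 to -0.017, with 0 called. Kmt2e at -0.017 with a 95% interval from -0.27 to 0.24 had the narrowest error among the members, and Kmt2c, a methyltransferase of histone H3, stood at -0.21.

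Of the 6 tested G proteins, kinases, phosphatase and small GTPases, Gnai1 fell, and 3 had positive estimates, of which the highest was Agap3 at 0.35. Gnat3, the G protein alpha subunit of taste cells that lies 73.7 kb after Cd36, had 4 counts, all in Cd36KO replicate 4. Of the 8 genes of protein and RNA handling, 0 were called, with log2 fold changes from -0.59 for Pmpcb to 0.37 for Tmub1, the highest estimate among the tested members. Psmc2, an ATPase of the proteasome, stood at -0.065 with a 95% interval from -0.40 to 0.27. Of the 3 tested genes of replication, repair and cell cycle, 0 were called, and Rint1 stood at -0.045. Of the 3 tested synaptic and membrane proteins, 0 were called, and the calcium-binding Sri, next to Steap4, stood at -0.0017 with a 95% interval from -0.38 to 0.38. Of the 38 tested members that were not called, the 95% interval lay within 1 log2 unit of 0 on both sides for 25 and reached beyond a 2-fold difference for the other 13.

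The class 3 semaphorins Sema3a, Sema3c, Sema3d and Sema3e lie within 5.19 Mb before Cd36, and at this depth Sema3c alone had an adjusted p. Sema3d had 7, 5, 0 and 2 counts in WT replicates 1 to 4 and 0 in all 4 Cd36KO libraries, where a count of 0 allows up to 3 counts. Sema3a had 1 to 5 counts in WT and 0 to 2 in Cd36KO, and Sema3e had 6 counts in all. Sema3d had a DESeq2 unadjusted p of 0.0214 and no adjusted p, and its exact two-sided permutation p was 0.143. For Sema3a and Sema3e a difference was not detectable at this depth. The same holds for Hgf, a growth factor gene 1.16 Mb before Cd36, with 17 counts in all 8 libraries, and for Reln, with 18. In all, 15 members had counts but no adjusted p, with mean normalized counts of at most 8.44, and Grm3 had 0 counts in every library.

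The rest of the interval was read for the same question. Besides the members, Cd36 and Slc25a40 it holds 123 annotated genes, of which 62 are protein-coding, 40 lincRNA and 21 antisense. Of these, 29 had a count and 8 an adjusted p, and 0 of the 8 were called, with 6 negative and 2 positive estimates. Klhl7, at 6.21 Mb, had separate groups and a log2 fold change of -0.84 (DESeq2 adjusted p = 0.164). Slc25a40, a mitochondrial carrier that lies 9.33 Mb before Cd36 among Steap4, Sri, Adam22 and Dbf4, went the other way. It had 40.8 to 47.8 normalized counts in WT and 70.6 to 147 in Cd36KO, a log2 fold change of 1.15 (DESeq2 adjusted p = 0.00592). It passed in 10 of the 16 alternative fits that gave an adjusted p, and not in edgeR (adjusted p = 0.0895) or limma (adjusted p = 0.123), with the replicate block (DESeq2 adjusted p = 0.327) or in the same 6 libraries without it (0.0823), without the unnumbered Cd36KO library (0.0776), or with the white fat score as a covariate (1.38, DESeq2 adjusted p = 0.180). In DESeq2, Steap4 was thus called lower and Slc25a40 higher on the same stretch, while Sri and Dbf4 between them did not pass (log2 fold changes of -0.0017 and 0.34). With these genes added, 5 of 52 tested genes of the interval were called, 4 lower and 1 higher.

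In 1 library the members lay lower as a set. Taken as the median over the 42 members of the deviation from the WT mean, on the scale of log2(normalized count + 1), the unnumbered Cd36KO library stood at -0.26 and Cd36KO replicates 2, 3 and 4 at -0.084, -0.078 and -0.053. The WT libraries stood between -0.031 and 0.029. Over all tested genes the same medians lay between -0.0065 and 0.025 in the 8 libraries. The unnumbered library has the highest muscle score and the highest white fat score of its group. WT replicate 1 has the highest muscle score of all 8 libraries, at 10.2 against 7.25 in the unnumbered library. Its median over the members nevertheless lay within the WT range of -0.031 to 0.029. The part of tissue composition in the shift of the unnumbered library was not tested. The number of called members moved when a library was left out, as did the number of members with an adjusted p and the number of calls over all genes, which was 284 with all libraries. Without the unnumbered library 1 of 43 members was called, Cacna2d1, with 113 calls over all genes. The median log2 fold change of the members was then -0.076, against -0.071 with all libraries. Without WT replicate 1 there were 3 of 43 members called, Gnai1, Lrrc17 and Steap4, with 345 calls over all genes and a member median of -0.155. Without WT replicate 2 there were 0 of 15 (68 over all genes), without WT replicate 3 there were 2 of 45 (141) and without WT replicate 4 there were 2 of 24 (501). Without Cd36KO replicate 2 there were 2 of 17 (272 over all genes), and Lrrc17 was the 1 call of 19 and of 22 without Cd36KO replicates 3 and 4 (129 and 126).

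The white fat score moved with 3 of the 4 calls. With the white fat score as a covariate, Gnai1, Lrrc17 and Steap4 no longer passed, as given above, and Sema3c had a log2 fold change of -3.30 without an adjusted p. With the muscle score as a covariate, Gnai1 and Lrrc17 passed at -1.22 and -1.16 (DESeq2 adjusted p = 0.0480 and 0.0381), Steap4 did not at -1.31 (DESeq2 adjusted p = 0.140), and Sema3c had no adjusted p. All 4 Cd36KO white fat scores lay below all 4 WT scores, so the part of this score and the part of genotype in these estimates cannot be told apart. The part of position near Cd36 in these values was not tested.

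**Figure D5:**
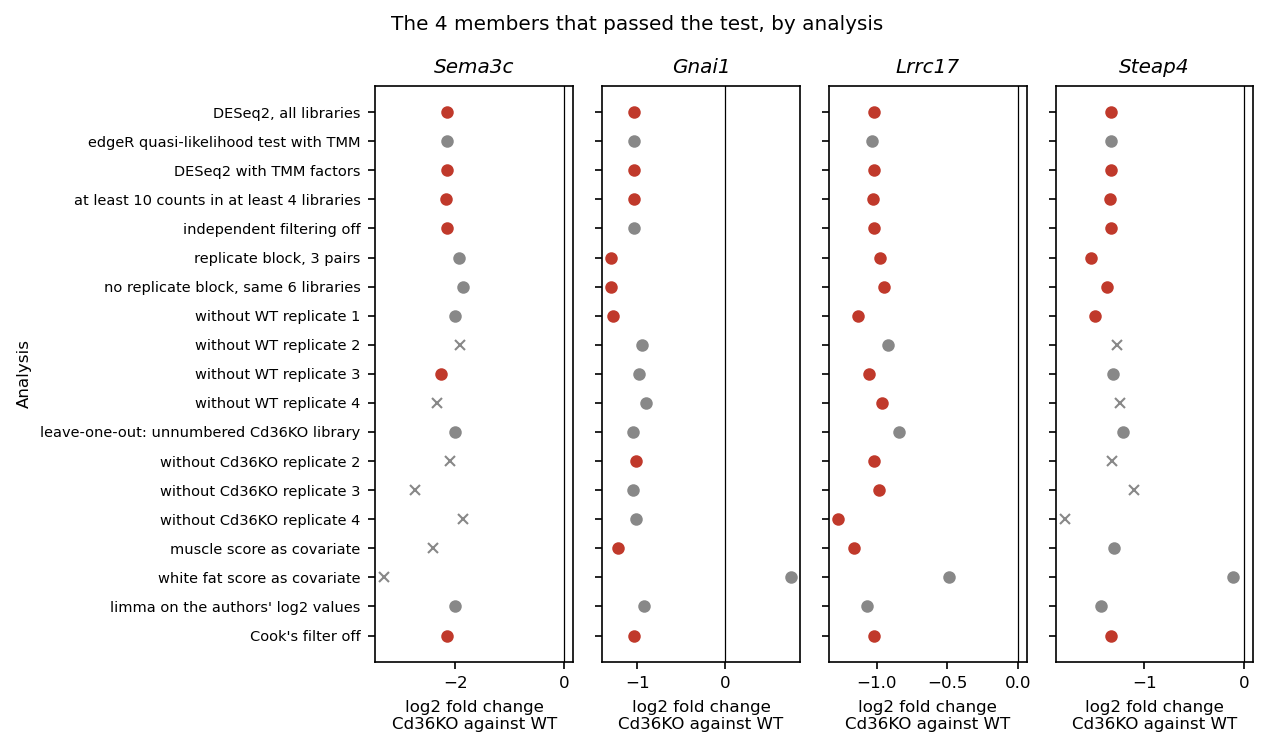
Log2 fold change, Cd36KO against WT, of Sema3c, Gnai1, Lrrc17 and Steap4 under each analysis. Points are red where the adjusted p is under 0.05 and grey otherwise, and crosses mark fits that gave no adjusted p. Estimates stay below 0 for all 4 genes except Gnai1 with the white fat score as a covariate, at 0.74.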

How the data were processed

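Bulk RNA-seq of BAT from 4 WT and 4 Cd36KO libraries was used, with groups and replicate numbers taken from the sample labels. Per the study's methods, reads were cleaned by the authors with bbduk, placed on mm10 (GRCm38) by STAR and assigned to genes by HTSeq-count, while the submitters' processing notes name Trimmomatic, HISAT2 and DESeq2. The deposited counts are whole numbers per gene, not normalized, and the strand setting and annotation release are not given in the sources used here. Counts of members that overlap a gene on the opposite strand, such as Lrrc17 with Fbxl13, Kmt2e with Srpk2, Fastk with Slc4a2 and Smarcd3 with Chpf2, are therefore less certain. Log2 values, also deposited by the authors, were checked to equal log2 of count over size factor plus a pseudocount of 1, and served for an alternative test. Libraries held 2679785 to 4097953 counts, and any limit from a count of 0 (3 counts) covers counting error only. The labels do not tie libraries to animals, and the study describes 4 mice in each group, as many as there are libraries.

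Of 31053 identifiers, 30934 matched GENCODE M21 (GRCm38), and 119 with 3959 counts did not. Distance is the gap between gene edges. DESeq2 1.42.0 (Wald test, genotype alone, default filters, R 4.3.3) was fitted to all genes with Benjamini-Hochberg adjustment at 0.05, and fold changes are unshrunken. edgeR 4.0.16 and limma 3.58.1 were alternatives, and single genes were also tested by exact permutation (SciPy 1.17.1). The statistical steps were tested on simulated data. Genes named are members with an adjusted p under 0.05, members averaging 20 or more normalized counts with separate groups, the 4 nearest on each side with a mean of at least 10, and the member with the most counts in each role group. Others named were chosen after their values were seen. The members, roles and marker lists were chosen with earlier results of these data known. Other alternatives were TMM factors, leave-one-out fits, a block for the replicate number, a muscle or white fat score as covariate, no independent filtering, and a minimum of 10 counts in 4 libraries. Switching off Cook's filter and leaving out libraries for the count of separate groups were added after the data were seen. Promoters are from RefSeq, and 49 of the 58 members matched.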

Additional observations from a re-analysis of the deposited data

Results flagged for a closer look

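Among 104 groups of 4 libraries tested for a library far from the others, 7 had one, where chance gives about 5.2. WT replicate 1 was the library in 4 of the 7. Its value of Gnai1 was 6.10 on the scale of log2(normalized count + 1), against 7.39 to 7.60 in WT replicates 2 to 4, and that of Pus7, a pseudouridine synthase, was 5.18 against 5.62 to 5.69. Its value of Cacna2d1 was 8.19 against 5.77 to 6.11, and its white fat score was 4.68 against 6.14 to 6.25. In the unnumbered Cd36KO library Cacna2d1 stood at 6.20 against 4.94 to 5.12 in the other Cd36KO libraries. The same library held Pmpcb, the beta subunit of the mitochondrial processing peptidase, at 2.72 against 5.46 to 5.81, which is 5 counts against 42 to 70. Smarcd3, a subunit of a chromatin remodelling complex that overlaps Chpf2 on the opposite strand, stood at 6.39 in Cd36KO replicate 3 against 5.41 to 5.50.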

How the results depend on the processing

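With 4 members called lower and 0 higher at first, TMM factors in DESeq2, the count filter and Cook's filter off called the same 4, and independent filtering off called 3 without Gnai1. The edgeR and limma tests called 0 of 42 and 0 of 57 members (14 and 8 of all genes), the muscle score as covariate 2 of 28 (Gnai1 and Lrrc17; 184 of all genes) and the white fat score 1 of 27 (Cacna2d1; 602 of all genes), all of these members lower. The cause of these changes was not tested. Taking all annotated genes of the interval gave 1 gene called higher, Slc25a40. Leaving out each library in turn gave 0 to 3 members called, 0 to 3 lower and 0 higher, with 15 to 45 members tested and 68 to 501 calls over all genes. In these fits the median log2 fold change of the members ran from -0.155 (without WT replicate 1) to -0.050, the members with separate groups numbered 3 to 5, and Cd36 ran from -0.56 (passing, without WT replicate 4) to -0.38. Cd36 also passed with the muscle score, at -0.67 (adjusted p = 0.0284). Over the 18 alternatives, the 4 called members together passed in 33 of the fits that gave an adjusted p, missed it in 27, and had none in 12.

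Signs turned for Gnai1 (0.74), Sri (0.37), Abcb8 (0.37), Kmt2e (0.029) and Psmc2 (0.011) with the white fat score, for Psmc2 (0.040) and Prkag2 (-0.0089) with the muscle score, and for Sri (0.0010) and Tmem60 (-0.0081) in limma. Among fits without single libraries that gave an adjusted p, Sri ran from -0.078 to 0.12, Abcb8 from -0.16 to 0.059, Dmtf1 from -0.11 to 0.11, Kmt2e from -0.055 to 0.044, Magi2 from -0.19 to 0.095, Psmc2 from -0.15 to 0.023, Rint1 from -0.042 to 0.053 and Tmem60 from -0.016 to 0.30. Over all 8 such fits the lower ends were -0.20 for Dmtf1, -0.23 for Rint1 and -0.14 for Tmem60. In alternatives without an adjusted p, Tmem243 reached -0.23, Magi2 0.30 and Tmem60 -0.47. Apart from Gnai1, none of these members passed in any fit run. Distances from start to start left every distance bin as it was.

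Same-numbered libraries share a number without a stated pairing, and their deviations correlated at -0.055, 0.23 and 0.098 for numbers 2, 3 and 4. With the replicate block on these 3 pairs, 3 members were called lower (Gnai1, Lrrc17 and Steap4), as in the same 6 libraries without it, and the median was -0.073. Dmtf1 (0.19) and Rint1 (0.11) turned positive under the block and also without it in the same libraries (0.16 and 0.14).

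At this depth, 16 of the 58 members had no adjusted p.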
